A study of Rattus norvegicus with 10 samples.

Results

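The transcripts described here encode the main proteins of the milk fat globule membrane, which were measured in rat milk whey and serum on arrays with 60-base probes. All non-control probes whose gene name in the files was Muc1, Mfge8, Btn1a1, Xdh, Cd36, Adfp or Plin2 (Adfp being an older name of Plin2) were taken. The rule found 5 probes for 5 of the 6 genes, on 14 of the 43379 non-control spots, among 41012 non-control probes in all. No probe carried the name Adfp or Plin2. A further probe, which the files describe as adipose differentiation-related protein (ADRP), an older synonym of Plin2, was found by its description after the values had been seen. It was outside the rule, is called ADRP below and is counted in no number of members.

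Milk was taken from 3 dams of the rat strain F344/N on d 2 (colostrum), d 9 and d 16 (mature milk) postpartum, and each of the 9 whey samples had its own array. Fat, cells and casein had been removed from the milk before the RNA was extracted. Serum was taken from the same 3 dams on d 21, after the last milking, and its RNA was mixed and put on 1 array, so that serum had no replicate and entered no test. All dams were separated from their litters and given oxytocin before each milking, and no treatment was compared. The dams carried the same numbers on each day, which are the replicate numbers used below.

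Milk fat leaves the mammary epithelial cell as a droplet that is wrapped first in a coat of droplet proteins and then in a bilayer of apical plasma membrane. Btn1a1 (butyrophilin), a membrane protein of the immunoglobulin superfamily, and Xdh (xanthine dehydrogenase, or xanthine oxidoreductase), a purine-degrading enzyme that binds its cytoplasmic tail, join droplet and membrane, together with Plin2, which coats the droplet. Cd36, a fatty acid translocase, Muc1, a mucin of the apical surface, and Mfge8 (lactadherin), a secreted protein that binds phosphatidylserine, are carried on the enveloping membrane.

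The probes of the members whose level differed between days, and the probe found by its description, are given 5′ to 3′ because each of these levels rests on a single probe. Positions are those the files give on rat genome build rn4, written here from the lower to the higher. The files list those of Mfge8 and ADRP in descending order. Exon and intron annotation was not used here.
Cd36 (chr4:13518295-13519542): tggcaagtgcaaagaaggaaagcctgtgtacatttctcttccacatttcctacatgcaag
Mfge8 (chr1:134870731-134870790): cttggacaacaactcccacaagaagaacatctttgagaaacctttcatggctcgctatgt
Btn1a1 (chr17:48863588-48863647): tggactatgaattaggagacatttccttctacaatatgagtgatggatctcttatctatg
Muc1 (chr2:181402014-181403312): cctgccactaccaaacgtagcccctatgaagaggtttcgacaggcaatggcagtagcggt
ADRP (chr5:105705820-105719096): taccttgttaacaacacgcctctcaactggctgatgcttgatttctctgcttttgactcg
The probe of Xdh lies at chr6:21589937-21589997. The listed positions of the Cd36 probe span 1248 bases, those of the Muc1 probe 1299 bases and those of the ADRP probe 13277 bases. Each has 60 bases of sequence, so that none of these matches 1 continuous stretch of the genome. The 4 member probes shown differed in base composition, from 35% G and C in Btn1a1 to 55% in Muc1. Cd36 was the only member printed more than once on the array, on 10 spots.

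The 9 whey arrays had 75th percentiles of the processed signal of 12.5 to 83.2, the serum array had 4.11, and no non-control spot was saturated. The d 2 samples of dams 1 and 2 lay on slide 1, the d 2 sample of dam 3 shared slide 2 with all d 9 samples, and the d 16 samples shared slide 3 with serum, so that d 16 and slide 3 cannot be told apart. All 5 member probes, and ADRP, were well above background on all 9 whey arrays. Of the 13 mammary epithelium markers, among them the caseins, whey acidic protein (Wap) and alpha-lactalbumin (Lalba), 13 were well above background on all whey arrays. Each sample held the RNA that many cells had released into the fluid, so that fewer releasing cells of a type and less RNA released per cell cannot be told apart.

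Levels are log2 normalized signals, and the level of 1 probe was not compared with that of another. Between days, Cd36 rose more than 2-fold after d 2, Mfge8 rose about 2-fold but on d 16 only, and Btn1a1 rose from d 2 to d 16, whereas Muc1 fell. Xdh showed no change that passed the test. From d 2 to d 9, 2 of the 5 members passed the test of limma at an adjusted p under 0.05, 1 higher (Cd36) and 1 lower (Muc1), against 17.6% of all 16849 probes tested, 11.3% higher and 6.36% lower. Between d 2 and d 16, 4 of 5 passed, 3 higher and 1 lower, against 28.5% of all probes, 16.0% higher and 12.4% lower. Between d 9 and d 16, 1 of 5 (Mfge8) passed and was higher, against 1.42% of all probes, 0.564% higher. In the F test over the 3 days, 4 of 5 passed, against 25.6%. Leaving out any 1 array of d 2 or d 9, or d 16 replicate 3, gave 1 in place of 2 for the first comparison. Leaving out d 2 replicate 2 or any 1 array of d 9 or d 16 gave 0 in place of 1 for d 9 to d 16. In the F test, leaving out d 2 replicate 1 or 2 gave 2 in place of 4. It gave 3 without d 2 replicate 3, any 1 array of d 9, or d 16 replicate 1 or 3. With so few members, these counts describe the members and were not tested against the background.

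**Figure D1:**
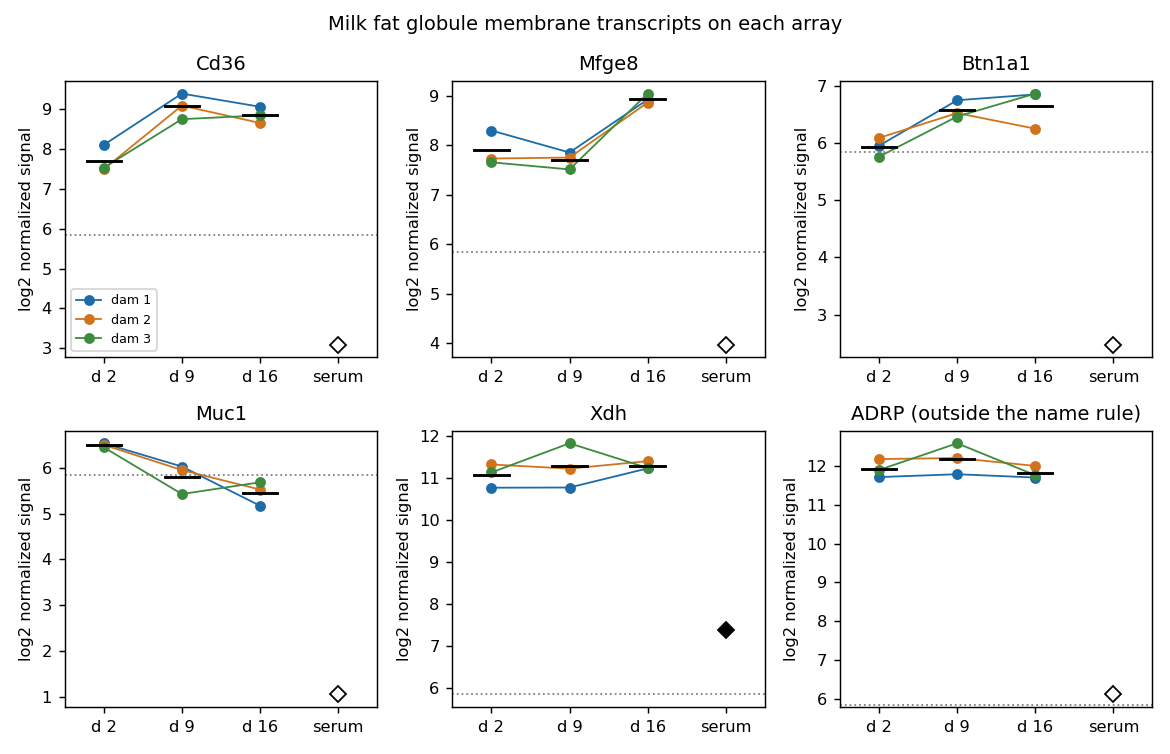
Log2 normalized signal (y axis, a separate range for each panel) of each probe on the 9 whey arrays and the serum array (x axis). Coloured lines join the samples of 1 dam, black bars are the means of 3 arrays, diamonds are serum (filled where well above background, as for Xdh alone), and the dotted line at 5.84 is the lowest serum value of any probe well above background. Cd36 lay between 7.49 and 8.10 on d 2 and between 8.65 and 9.38 later.

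Among the proteins of the enveloping membrane, Cd36 takes up long-chain fatty acids. Its level was 8.10, 7.49 and 7.53 in d 2 whey of dams 1 to 3. It was 9.38, 9.08 and 8.74 in d 9 whey and 9.05, 8.65 and 8.84 in d 16 whey. The d 2 values did not overlap with those of either later day, and all 3 dams were higher on both. From d 2 to d 9 Cd36 rose by 1.36 ± 0.23 (SE, n = 3 arrays per day) on the log2 scale, or 2.58-fold (limma adjusted p = 0.00893). By d 16 it rose by 1.14 ± 0.23, or 2.21-fold (limma adjusted p = 0.00987). Of all probes tested, 8.14% had a larger change in size than Cd36 by d 9 and 16.0% by d 16. Its d 9 and d 16 levels differed by -0.22 ± 0.23, with overlapping values (limma adjusted p = 0.632). Within slide 2, which held 1 d 2 array and the 3 d 9 arrays, Cd36 was higher on d 9 by 1.54, with a limma adjusted p of 0.0626.

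The 10 spots of the Cd36 probe show how far a level varied within an array. Their coefficient of variation was 4.05 to 5.78% on the whey arrays, with a mean of 4.82%, where 88 probes with 10 spots that were well above background on all whey arrays had a median of 6.15%. Before normalization, when the arrays also differed in overall brightness, the spots had median signals of 141, 158 and 231 on the 3 arrays of d 2, against 609, 1042 and 1716 on those of d 9. On d 16 the medians were 481, 704 and 674. In serum the spots ran from 1.76 to 4.30, and 0 of the 10 were well above background.

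**Figure D2:**
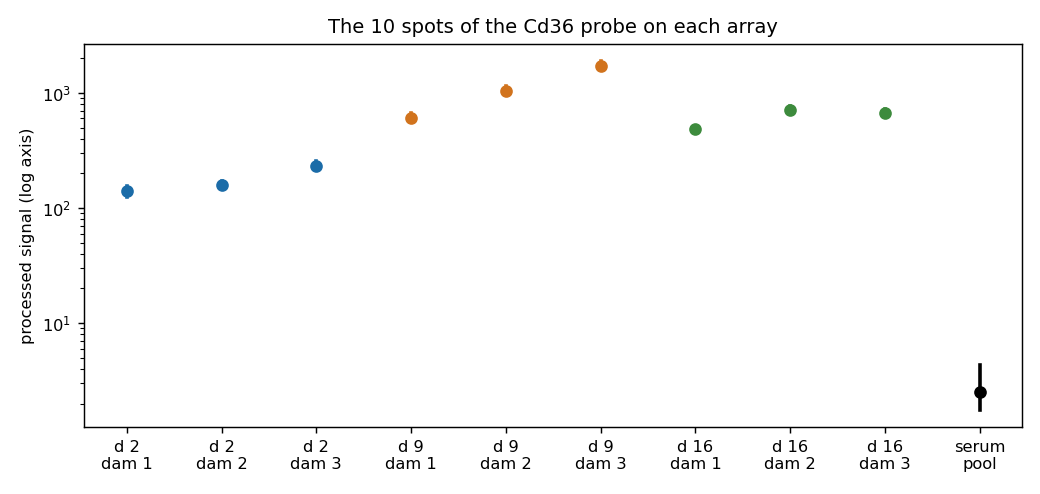
Processed signal before normalization (y axis, log axis) of the 10 spots of the Cd36 probe on each array (x axis). Points are the median spot, bars run from the lowest to the highest spot, and colours mark the days. Spots of 1 array lie within 125 to 154 on the dimmest whey array and 1643 to 1880 on the brightest, while serum lies under 4.30.

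Mfge8 marks apoptotic cells and membrane vesicles for uptake by phagocytes. Its level was 8.30, 7.73 and 7.65 in d 2 whey and 7.85, 7.75 and 7.51 in d 9 whey, 2 days whose values overlapped. It was 8.92, 8.86 and 9.04 in d 16 whey, above every sample of the other days. The rise was 1.05 ± 0.19 (SE), or 2.07-fold, from d 2 (limma adjusted p = 0.00672) and 1.24 ± 0.19, or 2.36-fold, from d 9 (limma adjusted p = 0.0319), in all 3 dams each time. The difference between d 2 and d 9 was -0.19 ± 0.19 (limma adjusted p = 0.509). By quantitative PCR in equal volumes of whey, the study reported Mfge8, like Muc1, as significantly higher in colostrum than in mature milk. For Mfge8 that is the other direction, in a measure per volume where the arrays held equal amounts of RNA. The study also found that colostrum whey held far more RNA per volume than whey of the later days. The arrays gave no level per volume of whey for any member. Since slide 3 held all d 16 samples, an effect of day cannot be told apart from one of slide for Mfge8. The rise from d 9 no longer passed with the dam as a replicate block (limma adjusted p = 0.0575), nor without any 1 array other than those of d 2 replicates 1 and 3, where limma adjusted p ranged from 0.0546 to 0.126.

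Muc1 is a transmembrane mucin that lines the apical surface of the secretory cell. Its level was 6.54, 6.51 and 6.45 in d 2 whey, a spread of 0.04 (SD). It was 6.03, 5.95 and 5.43 in d 9 whey and 5.17, 5.53 and 5.69 in d 16 whey. Every sample of d 2 lay above every sample of the later days, which overlapped with each other. Muc1 fell by 0.69 on the log2 scale between d 2 and d 9 (SE 0.20, 1.62-fold, limma adjusted p = 0.0475) and fell by 1.04 between d 2 and d 16 (SE 0.20, 2.05-fold, limma adjusted p = 0.00797), in all 3 dams each time. The first of these calls lay close to the threshold. It was lost with the dam as a replicate block (limma adjusted p = 0.0759), within slide 2 (limma adjusted p = 0.299) and without any 1 whey array other than d 16 replicate 1 (limma adjusted p from 0.0507 to 0.112). With normexp background correction, which adds an offset to every signal, both falls passed at a smaller size, -0.38 by d 9 and -0.48 by d 16 (limma adjusted p = 0.0100 and 0.00194).

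Of the proteins that join droplet and membrane, Btn1a1 is made almost wholly in the lactating mammary gland. Its level was 5.95, 6.09 and 5.76 in d 2 whey. It was 6.74, 6.52 and 6.46 in d 9 whey and 6.85, 6.25 and 6.86 in d 16 whey. No d 2 sample reached the lowest sample of a later day, but dam 2 differed by only 0.16 between d 2 and d 16, where dam 1 differed by 0.90 and dam 3 by 1.10. Btn1a1 rose by 0.72 ± 0.19 (SE), or 1.65-fold, from d 2 to d 16 (limma adjusted p = 0.0288). Between d 2 and d 9 the difference was 0.64 ± 0.19, or 1.56-fold, with a limma adjusted p of 0.0572. The d 16 call was lost without d 2 replicate 1 or 3 or d 16 replicate 1 or 3, where limma adjusted p ranged from 0.0592 to 0.0979, with no filter (0.0539), with only the 6 arrays of both days (0.0553) and with the Tukey-Kramer test (0.0994). With normexp it passed at 0.33 (limma adjusted p = 0.0143). The d 9 difference passed in only 6 of 21 alternatives. It passed without d 16 replicate 2 (limma adjusted p = 0.0295), with 75th percentile scaling (0.0286), a minimum signal of 100 (0.0272) and slide as a random block (0.0476). It also passed with normexp at 0.40 (0.00886) and with spike-in scaling at 2.18 (0.0164). It did not pass with the dam as a replicate block (limma adjusted p = 0.074) or with the Tukey-Kramer test (0.1785). Of the 9 fits that left out 1 whey array, 1 passed, and limma adjusted p reached 0.132 in the others. Within slide 2, which held 1 d 2 array, the difference was 0.82. Values did not overlap for 3 of 5 members between d 2 and d 9 (Cd36, Muc1 and Btn1a1), against 38.8% of all probes, for 4 of 5 between d 2 and d 16, against 48.2%, and for 1 of 5 between d 9 and d 16, against 29.3%.

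Xdh, besides its enzyme activity, is required as a structural protein for the envelopment of milk fat droplets. Its level was 10.76, 11.32 and 11.13 in d 2 whey of dams 1 to 3. It was 10.77, 11.22 and 11.82 on d 9 and 11.23, 11.40 and 11.24 on d 16. The 3 days overlapped, and the widest spread was that of d 9. The differences were 0.20 ± 0.27 (SE) between d 2 and d 9, 0.22 ± 0.27 between d 2 and d 16 and 0.02 ± 0.27 between the later days, with limma adjusted p of 0.625, 0.576 and 0.984. A larger change in size than that of Xdh was seen in 72.1% of all probes by d 9 and in 73.9% by d 16. The sign of the last difference turned without d 9 replicate 1 (-0.24), d 9 replicate 2 (-0.0073) or d 16 replicate 2 (-0.040), and that of the first without d 9 replicate 3 (-0.077).

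ADRP, the probe outside the rule, represents the coat protein of the cytoplasmic lipid droplet. Its level was 11.72, 12.18 and 11.90 in d 2 whey of dams 1 to 3. It was 11.79, 12.21 and 12.59 on d 9 and 11.71, 12.01 and 11.77 on d 16. All days overlapped. None of its differences passed, at 0.26 ± 0.22 (SE) between d 2 and d 9, -0.11 ± 0.22 between d 2 and d 16 and -0.37 ± 0.22 between the later days, with limma adjusted p of 0.431, 0.751 and 0.408. The difference between d 2 and d 16 was 0.016 without d 2 replicate 2.

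**Figure D3:**
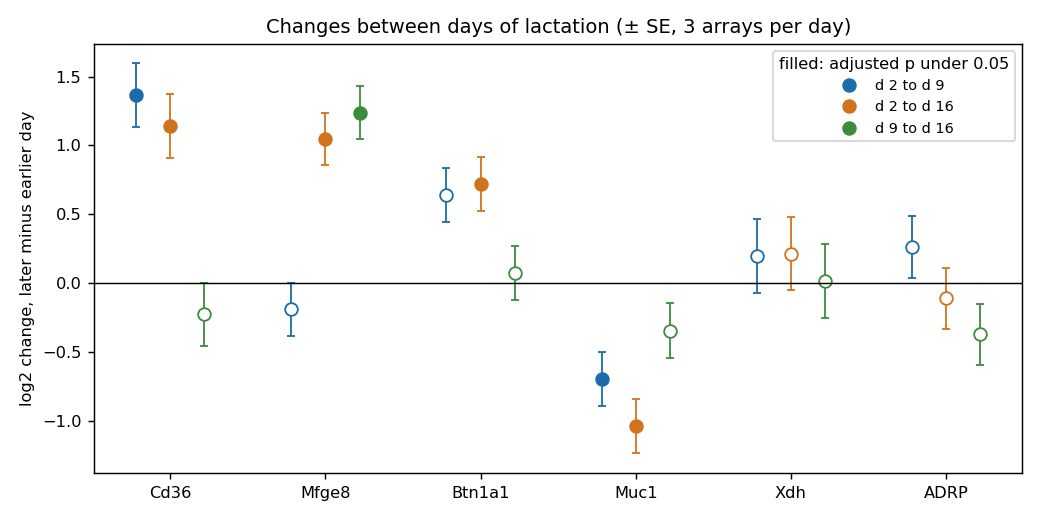
Log2 change between days (y axis, later minus earlier day, bars ± SE of the limma fit, 3 arrays per day) of the 5 members and ADRP (x axis). Filled points have a limma adjusted p under 0.05. Cd36 is filled after d 2, Mfge8 for both comparisons with d 16 and Muc1 for both with d 2, while Xdh and ADRP are open throughout.

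The members did not share 1 time course. Over the 9 whey arrays, Btn1a1 and Cd36 had the highest correlation among pairs of members (Pearson r = 0.87) and Btn1a1 and Muc1 the lowest (r = -0.73). Xdh correlated with r = 0.79 with ADRP. When each level was taken as the deviation from its day's mean, r was 0.97 for Xdh and ADRP, -0.90 for Xdh and Cd36 and 0.87 for Mfge8 and Cd36. These coefficients are descriptions over 9 arrays that share the dams, the slides and the normalization. The deviations of Xdh ran from high in d 9 whey of dam 3 to low in that of dam 1, and those of Cd36 the other way. These were the brightest and the dimmest d 9 arrays, with 75th percentiles of 83.2 and 21.2 before normalization. Dam and array brightness cannot be told apart there, and the part of brightness in these coefficients was not tested. Among the 7248 probes that carried a gene symbol and were above background on all whey arrays, those most alike were, for Cd36, RGD1565033 (r = 0.985), Ube2e3 (0.985) and Bola3 (0.984). For Mfge8 they were Tbc1d10c (0.972), LOC680730 (0.970) and Nes (0.958), and for Muc1 Mettl7a (0.995), Exosc5 (0.960) and Srrm1 (0.957). For Btn1a1 they were Tmem19 (0.973), Fts (0.954) and Pigx (0.953). For Xdh they were Dcaf6 (0.952), Acaca (0.929), which encodes the acetyl-CoA carboxylase of fatty acid synthesis, and Ncor1 (0.920).

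The changes depended on what the arrays were scaled to. With the signals scaled to the 9 spike-in control probes, the median log2 change of all probes was 1.52 between d 2 and d 9, 0.59 between d 2 and d 16 and -0.93 between the later days, against 0.11, 0.04 and -0.06 with quantile normalization. On that scale Cd36 rose by 2.88 from d 2 to d 9 (limma adjusted p = 0.00185). Muc1 and Mfge8 turned sign to 0.78 and 1.32 (limma adjusted p = 0.309 and 0.0961). Of the 5 members, 2 (Cd36 and Btn1a1) passed, both higher, where 1 higher and 1 lower had passed with quantile normalization. Of all 16849 probes tested, 7072 were called from d 2 to d 9 on that scale, in place of 2969. By d 16 the spike-in scale gave 1.71 for Cd36, 1.62 for Mfge8, 1.36 for Btn1a1 and -0.44 for Muc1, and 0 of 5 passed limma's test (2 at an unadjusted p under 0.05), with 764 of all probes called in place of 4801. Taken relative to the median of all probes, Cd36 changed by 1.36 and Muc1 by -0.75 from d 2 to d 9 on the spike-in scale, against 1.25 and -0.81 with quantile normalization. Relative to the median, Mfge8 from d 2 to d 16 was 1.03 on the spike-in scale and 1.01 with quantile normalization. All directions given here for single members are thus relative to the other whey transcripts.

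**Figure D4:**
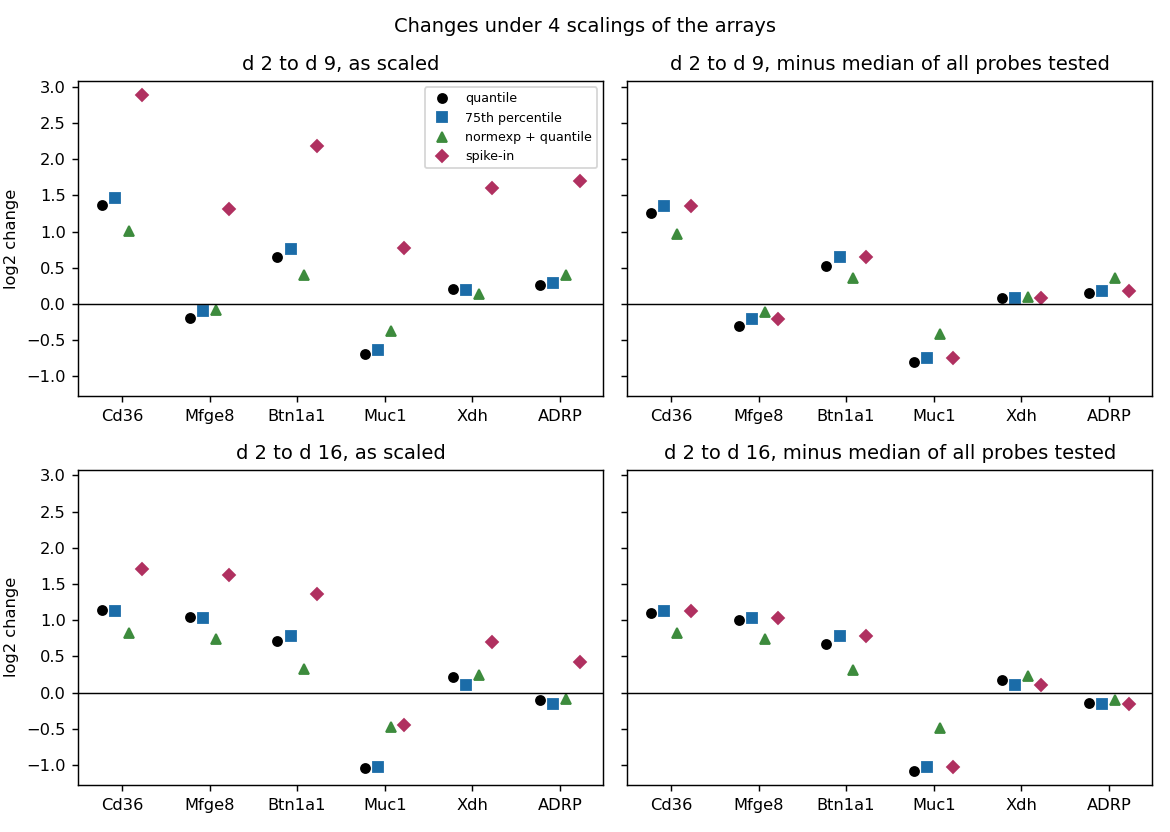
Log2 change since d 2 at d 9 (upper panels) and d 16 (lower panels), on the y axis, of the members and ADRP (x axis) under 4 scalings of the arrays (symbols). The left panels hold the changes as scaled and the right panels the changes minus the median of all probes tested. Spike-in scaling lifts every gene on the left, Muc1 from -0.69 to 0.78 from d 2 to d 9, and lies close to the other scalings on the right.

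In the serum pool, Xdh was the only member well above background, where 9 of the 13 mammary epithelium markers were. Its level there was 7.36 against 11.21 ± 0.32 (SD, n = 9) in whey, a 14.4-fold higher signal in whey. The size rested on the scaling, at 9.23-fold with normexp, 24.8-fold with 75th percentile scaling and 175-fold with spike-in scaling. The other 4 members were not well above background in serum, against 52.8% of the 9820 probes that were well above background on all whey arrays. For these the serum level has only a bound, the lowest serum value of any probe well above background, 5.84 on the log2 scale. With quantile normalization, whey signal was at least 6.49-fold higher than serum for Cd36, at least 5.05-fold for Mfge8, at least 1.46-fold for Btn1a1 and at least 1.06-fold for Muc1. By day, the bound for Cd36 was 3.64-fold in d 2 whey, 9.37-fold in d 9 whey and 8.02-fold in d 16 whey, and that for Mfge8 was 4.14-fold, 3.63-fold and 8.57-fold. The mean of Muc1 lay above the bound in d 2 whey alone, at least 1.58-fold, although single d 9 samples, those of dams 1 and 2, also exceeded it. ADRP was not well above background in serum either, and its own signal there set a bound of at least 58.6-fold. With normexp, where each scale has its own bound, these values were lower for Cd36 (5.10-fold), Mfge8 (3.33-fold) and ADRP (28.9-fold), and higher for Btn1a1 (1.82-fold) and Muc1 (1.88-fold). On that scale the own serum signals of Cd36, Mfge8, Btn1a1 and ADRP lay above the bound and were used in its place, and only Muc1 stood at the bound. With spike-in scaling they were 62.7-fold for Cd36, 48.9-fold for Mfge8, 589-fold for ADRP, 13.8-fold for Btn1a1 and 9.90-fold for Muc1. Past 4-fold with serum at its bound were 3 of 5 members (Cd36, Mfge8 and Xdh) with quantile normalization, against 9.27% of these probes, 2 with normexp and 5 with spike-in scaling. With 1 serum array from pooled RNA, none of these differences was tested. Platelets and red cell precursors also make Cd36, and 5 of 7 platelet markers and 5 of 6 erythroid markers were well above background in serum, where Cd36 was not.

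The related genes were taken from 4 lists, of lipid droplet proteins, other proteins found on the milk fat globule membrane, triglyceride synthesis, and relatives and partners of the members. Each gene was represented by the probe with the most whey arrays well above background. Of the 55 genes of these lists that were tested, 11 were higher and 3 lower on d 9 than on d 2, or 25.5% against 17.6% of all probes. On d 16, 14 were higher and 7 lower than on d 2, or 38.2% against 28.5%, and 3 were higher and 0 lower than on d 9, or 5.45% against 1.42%. With spike-in scaling the calls were 24 higher and 1 lower by d 9, 5 higher and 0 lower by d 16, and 0 higher and 1 lower between the later days. On that scale 7072, 764 and 159 of all 16849 probes were called in these comparisons. With normexp the calls of the lists were 10 higher and 6 lower by d 9 and 7 higher and 1 lower between the later days. Of all probes, 3440 and 855 were then called. Within slide 2, 1 of the 14 genes called by d 9 passed (G0s2). Leaving out an array gave 5 calls by d 9 without replicate 2 of d 2 or d 9, 7 without d 2 or d 16 replicate 3 and 9 without d 2 or d 9 replicate 1. Between the later days it gave 1 call without d 2 or d 9 replicate 3, and 0 without d 2 replicate 2, d 9 replicate 1 or 2 or any 1 array of d 16. The sizes also depended on the background correction. Of the 29 called changes of the named list genes, 28 passed with normexp too, and 10, those of Slc34a2, Cd14, Anxa2, Galnt1, Stat5b and Abcg2 (by d 9), were over 1.5 times as large on the log2 scale without it. The lists were described by these counts and were not tested as lists.

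Of 18 lipid droplet genes, 9 could be tested, and 4 rose and 0 fell from d 2 to d 9, or 44.4% against 17.6% of all probes. Their median change was 0.57 against 0.11 for all probes. Between d 2 and d 16, 3 rose and 0 fell, or 33.3% against 28.5% of all probes, with a median of 0.40 against 0.04. Between the later days 0 passed limma's test, where 1 had an unadjusted p under 0.05 and 1 passed with normexp. G0s2, an inhibitor of adipose triglyceride lipase, rose by 1.73 ± 0.20 (SE) by d 9 and by 1.68 ± 0.20 by d 16, both from d 2 (limma adjusted p = 0.00317 and 0.00140). Pnpla2, the lipase that G0s2 inhibits, rose by 0.78 ± 0.22 from d 2 to d 9 (limma adjusted p = 0.0496), a call that was lost without any 1 of the 9 whey arrays (limma adjusted p from 0.0514 to 0.112) and with the replicate block (0.0698). Cidea, a droplet protein that promotes lipid transfer between droplets, rose by 0.58 by d 9 and by 0.89 ± 0.14 by d 16 (limma adjusted p = 0.0298 and 0.00394). Rab18, a small GTPase found on droplets, rose by 0.82 ± 0.16 and 0.83 ± 0.16 (limma adjusted p = 0.0138 and 0.00817), the first lost without d 9 replicate 2 (limma adjusted p = 0.0533). Plin, the perilipin of adipocytes, was well above background on 0 whey arrays.

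Of 26 other membrane genes, 23 were tested. Against d 2, 4 were higher and 3 lower on d 9, or 30.4% against 17.6% of all probes, with a median of -0.08 against 0.11. On d 16, 7 were higher and 4 lower than on d 2, or 47.8% against 28.5%, with a median of 0.29 against 0.04. Slc34a2, a sodium-phosphate cotransporter, rose by 1.86 ± 0.34 (SE) by d 9 and by 1.93 ± 0.34 by d 16 (limma adjusted p = 0.0118 and 0.00620), or by 0.67 and 0.64 with normexp. Abcg2, a transporter that carries riboflavin and drugs into milk, rose by 1.16 ± 0.21 and 1.70 ± 0.21 (limma adjusted p = 0.0117 and 0.00170). Rab1, a GTPase of transport between endoplasmic reticulum and Golgi, rose by 0.51 ± 0.12 from d 2 to d 9 (limma adjusted p = 0.0235), which was lost without d 2 replicate 1 or 2 or d 9 replicate 2 (limma adjusted p from 0.0541 to 0.0800).

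Falls in the same list were seen in genes of other functions. Cd14, a co-receptor for lipopolysaccharide that is also among the macrophage markers, fell by 1.54 by d 9 (SE 0.38) and fell by 1.88 by d 16 (SE 0.38), with limma adjusted p of 0.0296 and 0.00951. The first call was lost without d 2 replicate 2 or 3, d 9 replicate 1 or 3 or d 16 replicate 3 (limma adjusted p from 0.0514 to 0.0771). Ezr (ezrin), which ties the apical membrane to the actin cytoskeleton, fell by 1.51 from d 2 to d 16 (SE 0.18, limma adjusted p = 0.00134). By d 9 Ezr fell by 0.67 (SE 0.18, limma adjusted p = 0.0389), lost without any 1 whey array other than d 9 replicate 3 (limma adjusted p from 0.0571 to 0.118) and with the replicate block (0.0564). Ppia (cyclophilin A) fell by 0.58 by d 9 and fell by 0.83 by d 16 (SE 0.12 each, limma adjusted p = 0.0168 and 0.00269), the first lost without d 2 or d 9 replicate 2 (limma adjusted p = 0.0564 and 0.0535). On the spike-in scale Ezr and Ppia turned sign by d 9, to 0.81 and 0.84.

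In that list, genes of 2 annexins and a complement regulator changed after d 9. Anxa2, which binds membranes in the presence of calcium, rose by 1.62 ± 0.24 (SE) from d 9 to d 16 (limma adjusted p = 0.0297) and by 1.66 ± 0.24 since d 2 (limma adjusted p = 0.00300). Anxa1 rose by 2.12 ± 0.36 and Cd59, an inhibitor of complement, by 1.10 ± 0.18 from d 9 to d 16 (limma adjusted p = 0.0402 and 0.0356). These d 9 to d 16 calls were not stable to the samples used. That of Anxa2 was lost without any 1 array other than d 2 replicates 1 and 3 (limma adjusted p from 0.0504 to 0.116), that of Anxa1 without any 1 other than d 2 replicate 1 (0.0552 to 0.143) and that of Cd59 without any 1 other than d 2 replicate 1 and d 9 replicate 3 (0.0530 to 0.137). With the replicate block, limma adjusted p was 0.0644 for Anxa1 and 0.0602 for Cd59. As for Mfge8, d 16 and slide 3 cannot be told apart.

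Of 17 triglyceride synthesis genes, 14 were tested, and their median change, 0.14 by d 9 and 0.13 by d 16, lay close to that of all probes. Against d 2, 2 were higher and 0 lower on d 9, or 14.3% against 17.6% of all probes. On d 16, 2 were higher and 1 lower than on d 2, or 21.4% against 28.5%. Both shares were below those of all probes. Agpat6, an enzyme of the first acylation step of glycerolipid synthesis, rose by 1.07 ± 0.22 (SE) by d 9 and 1.20 ± 0.22 by d 16 (limma adjusted p = 0.0171 and 0.00707), the first lost without d 2 or d 9 replicate 2 (limma adjusted p = 0.0567 and 0.0556). The other call from d 2 to d 9 was Agpat2, named because only 2 passed, whose probe was well above background on 2 whey arrays. Agpat3 rose by 0.60 ± 0.18 from d 2 to d 16 (limma adjusted p = 0.0405), lost without any 1 of 7 arrays, all but d 2 replicate 1 and d 9 replicate 3 (limma adjusted p from 0.0550 to 0.112). Acsl4, which activates arachidonate, fell by 0.99 (SE 0.25, limma adjusted p = 0.0221), lost without d 2 replicate 3 or d 16 replicate 1 or 2 (limma adjusted p from 0.0554 to 0.0719). Dgat1 and Dgat2, which catalyse the last step of triglyceride synthesis, did not pass. Their log2 differences were -0.57 and 0.17 by d 9 and -0.09 and 0.34 by d 16, with SE of 0.40 and 1.08. The Dgat2 probe was well above background on only 4 whey arrays, so that its differences say little.

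Of 26 relatives and partners, 21 had a probe and 9 were tested. Against d 2, 1 was higher and 0 lower on d 9, or 11.1% against 17.6% of all probes. On d 16, 2 were higher and 2 lower than on d 2, or 44.4% against 28.5%. Galnt1, which starts O-glycosylation of mucins, rose by 0.57 ± 0.13 (SE) by d 9 and 0.74 ± 0.13 by d 16 (limma adjusted p = 0.0266 and 0.00684). The first call was lost without d 2 replicate 2 or 3, d 9 replicate 1 or 2 or d 16 replicate 3 (limma adjusted p from 0.0505 to 0.0898) and with normexp, which gave 0.20 (0.0659). Stat5a and Stat5b, which carry the prolactin signal to milk protein genes, fell by 0.86 (SE 0.24) and fell by 0.66 (SE 0.15) between d 2 and d 16 (limma adjusted p = 0.0337 and 0.0152). The call of Stat5a was lost without d 2 replicate 2 or 3 or any 1 of the d 16 arrays (limma adjusted p from 0.0771 to 0.102), and that of Stat5b without d 16 replicate 2 (limma adjusted p = 0.0538). The butyrophilin relatives Btn2a2, Btnl7 and Btnl8, the integrin chains Itgav and Itgb3 that bind Mfge8, and the mucin Muc13 were well above background on 0 whey arrays.

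**Figure D5:**
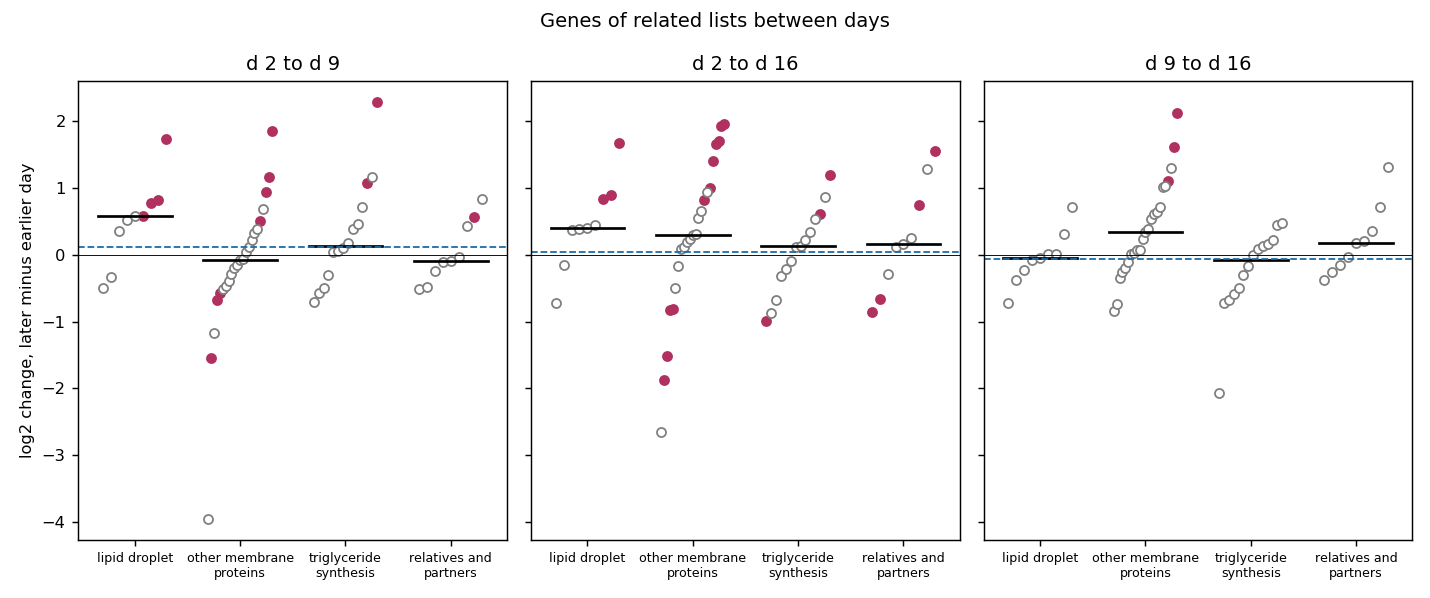
Log2 change between days (y axis, later minus earlier day) of the tested genes of the 4 lists (x axis), 1 panel per comparison. Filled points have a limma adjusted p under 0.05, black bars are list medians and the dashed line is the median of all probes tested. Between d 2 and d 9 the lipid droplet genes lie highest as a list, with a median of 0.57 and 4 filled points, all above 0.

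Markers of other cell types moved over the same days. Of 15 macrophage markers with a probe, 11 were tested, and 7 were higher and 1 (Cd14) lower by d 9, or 72.7% against 17.6% of all probes. By d 16, 8 were higher and 1 lower, or 81.8% against 28.5%. Their summed linear level was 935 to 1042 in d 2 whey and 1073 to 2275 in d 9 whey. It was 3590 to 4439 in d 16 whey and 18420 in serum. Csf1r, Marco and Cd163 were well above background on 0 whey arrays. Cd36, Mfge8 and Anxa1 are also made by macrophages. The summed level of 10 adipocyte markers was 334 to 501 in d 2 whey, 129 to 180 in d 9 whey and 141 to 178 in d 16 whey. Of the 5 tested, Cfd and Retn fell by 1.47 and fell by 3.16 by d 9 (limma adjusted p = 0.0107 and 0.00972), while Fabp4, Cidec and Lipe, with differences of 0.18, 0.57 and -0.50, did not pass, and Adipoq, Lep and Plin were well above background on 0 whey arrays. Cd36 is also made by adipocytes. None of 10 endothelium markers was well above background in d 2 whey, and at most 2 were on a later day. Of 3 lymphocyte markers tested, 0 passed by d 9. By d 16, Cd3d and Cd3g rose by 1.84 and 1.16 (limma adjusted p = 0.00283 and 0.0164), or 66.7% against 28.5%. The 1 erythroid marker tested, Hba-a2 (LOC287167), rose by 2.12 by d 16 (limma adjusted p = 0.00134). Pf4, the 1 platelet marker tested, fell by 1.73 (limma adjusted p = 0.0134). Of 4 neutrophil markers tested, 0 passed. Of the mammary epithelium markers, 0 were higher and 5 lower by d 9, or 38.5% against 17.6% of all probes. By d 16, 4 were higher and 5 lower, or 69.2% against 28.5%. The 4 rises were of milk protein genes (Csn2, Csn3, Wap and Lalba). The 5 falls, on both days, were of the keratins Krt8, Krt18 and Krt19 and the claudins Cldn3 and Cldn7. The part of these cell types in the changes of the members was not tested.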

How the data were processed

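The members and the lists of related genes were chosen with earlier results of these data known. Per the file headers, the deposited processed signal is an intensity made by the authors with Agilent Feature Extraction 9.5.3.1, with background subtracted and no normalization between arrays. The mean and background intensity values, deposited beside it, served the normexp alternative. The deposited flags (well above background, saturated, outlier) are other values of the same software. A deposited table of the whole series, which holds log2 values after the authors' quantile normalization, was not used, since its 10 sample columns match no sample label.

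Control spots and spots with an outlier flag (93 to 121 per array) were left out, spots of a probe were averaged, and the log2 of the processed signal of all 10 arrays was quantile normalized, as the study's methods state. Probes that exceeded a signal of 20 and were well above background on at least 1 whey array were tested (16849 probes). Days were compared with limma 3.58.1 in R 4.3.3 (lmFit, eBayes, two-sided, 1.83 prior degrees of freedom) over the 9 whey arrays, at a threshold of 0.05 after Benjamini-Hochberg adjustment across these probes. The script was tested on simulated data.

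Samples were grouped by their titles, whose dam numbers pair the days within an animal. Over all probes tested, deviations from the day means correlated with r of -0.018 to 0.218 within a dam (n = 9 pairs of arrays) and -0.254 to 0.158 between dams (n = 18). The deviations of a day cancel over its dams, so that these ranges are not independent of each other. The study's methods use no block, so that the dam was a block in an alternative. With 3 arrays per day and 1 for serum, the number of arrays limits the precision. Named were all members, up to 3 largest rises and falls per list among called genes well above background on all 6 arrays of the days compared, and the 3 most alike probes of each member. Probes were named as in the files. Alternatives were other scalings, background correction, filters, slide and dam blocks, the Tukey-Kramer test of the methods, and leaving out each whey array.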

Additional observations from a re-analysis of the deposited data

How the results depend on the processing

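Of the 5 members, the number called from d 2 to d 9 was 2 and became 1 with no filter, with the dam as a replicate block, with only the 6 arrays of both days and with the Tukey-Kramer test, 0 with slide as a fixed block, and 1 to 2 when single arrays were left out. From d 2 to d 16 it was 4, 0 with spike-in scaling, 3 with no filter, only 6 arrays or Tukey-Kramer, and 3 to 4 when single arrays were left out. From d 9 to d 16 it was 1, 0 with spike-in scaling, no filter, the replicate block or Tukey-Kramer, and 0 to 1 when single arrays were left out. By the F test it was 4, 2 with spike-in scaling, 3 with no filter or the replicate block, and 2 without d 2 replicate 1 or 2. It was 3 without any other 1 array except d 16 replicate 2. Past 4-fold from serum as measured, where 4 of the 5 had no serum signal well above background, 5 became 2 with normexp. The serum bounds under other scalings were added after the data had been seen. For genes of the lists, 14 calls from d 2 to d 9 became 25 with spike-in scaling, 9 with no filter, 1 with slide as a fixed block, 8 with only 6 arrays, 4 with Tukey-Kramer and 5 to 15 when single arrays were left out. From d 2 to d 16, 21 became 5 with spike-in scaling, 14 with Tukey-Kramer and 17 to 24 when single arrays were left out. From d 9 to d 16, 3 became 8 with normexp, 7 with a minimum signal of 100, 6 with slide as a random block, 1 with spike-in scaling or the replicate block, 0 with no filter, only 6 arrays or Tukey-Kramer, and 0 to 3 when single arrays were left out. The causes were not tested. Cd36 passed from d 2 to d 9 in 20 of 21 alternatives and from d 2 to d 16 in 19 of 20, as did Muc1 and Mfge8 from d 2 to d 16.

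With spike-in scaling, which moves the median of all probes, the sign turned for Muc1 (0.78), Mfge8 (1.32), Ezr (0.81) and Ppia (0.84) from d 2 to d 9, for Btn1a1 (-0.81) and Xdh (-0.91) from d 9 to d 16 and for ADRP (0.42) from d 2 to d 16. Differences that had not passed also turned sign elsewhere. That of Mfge8 between d 2 and d 9 was 0.050 with slide as a fixed block and -0.31 to 0.011 when single arrays were left out, above 0 without d 2 replicate 1. That of Btn1a1 between d 9 and d 16 was -0.070 with normexp and -0.028 to 0.28 when single arrays were left out, below 0 without d 16 replicate 1 or 3. That of Xdh between d 9 and d 16 was -0.077 with 75th percentile scaling and -0.24 to 0.29 when single arrays were left out, below 0 without d 9 replicate 1 or 2 or d 16 replicate 2. That of Xdh between d 2 and d 9 was -0.077 without d 9 replicate 3 and at most 0.45. That of ADRP between d 2 and d 16 was -0.22 to 0.016 when single arrays were left out, above 0 without d 2 replicate 2.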
